A study of Mus musculus with 2 samples.

Results

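The 10 genes described here encode the classical MHC class I pathway, 3 class Ib chains and their regulator: B2m, H2-D1, H2-K1, H2-T3, H2-Q1, H2-Q2, Tap1, Psmb8, Psmb9 and Nlrc5. They were chosen by symbol from the 31053 genes listed for both libraries, and each symbol stands once in that list. All 10 had enough unique molecular identifiers (UMIs, the counted molecules) to be compared over all kept cells and in each of the 4 main epithelial classes, where enough means at least 20 UMIs over both libraries.

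Epithelial cells of mouse colon were profiled in 2 droplet libraries, 1 per group. For the GFP library, c-Kit-creERT2;Rosa26-mTG animals received tamoxifen once into the peritoneum, at 1 mg for each 20 g of weight, and GFP-positive cells were sorted. In these mice the Kit gene drives an inducible Cre recombinase, which switches the reporter at Rosa26 to GFP in Kit-expressing cells and their progeny. The whole epithelium library is of untreated c-Kit-creERT2 animals. Both groups carry the Cre allele, they differ in reporter and tamoxifen, and a sort is described for the GFP cells. No source used here gives the number of animals, their age, their strain or the time after tamoxifen, and the strain would fix which H2 alleles were read. The records cross the count matrices and the barcode lists, and each matrix was given to the sample whose barcode list has its size, so that every direction between the libraries would turn with the reverse assignment, and the library named for every direction within one would change.

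The filter on genes, UMIs and mitochondrial share kept 5767 of 13575 barcodes in the GFP library (42.5%) and 7762 of 13967 in the whole epithelium library (55.6%), with medians of 15821 UMIs per GFP cell and 14160 UMIs per whole epithelium cell. The 2 barcode lists share 60 barcodes. The animals differed in sex, since Xist stood at 749.8 CPM (a gene's UMIs over all UMIs summed, on a fixed scale) in the GFP library and 0.0652 CPM in the whole epithelium library, while Ddx3y, on the Y chromosome, had 0 UMIs in the GFP library and 35.4 CPM in the whole epithelium library. Sex, reporter, tamoxifen, sorting and library therefore cannot be told apart in any difference between the libraries. A single library stands for each group, so no difference has a replicate or a test. All intervals are 95% intervals for counting error only, and UMIs were summed over cells, so that a shift in a few cells and a shift in all of them give the same sum.

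MHC class I molecules show peptides from inside the cell to CD8 T cells and are scanned by NK cells. Proteasomes cut cytosolic proteins into peptides, the TAP transporter carries them into the endoplasmic reticulum, and a heavy chain paired with beta-2 microglobulin takes them to the cell surface. Interferons raise the whole set of genes and exchange the catalytic subunits of the proteasome for those of the immunoproteasome. In the intestinal epithelium class I and class I-like molecules also meet the intraepithelial lymphocytes that lie between the epithelial cells.

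B2m (ENSMUSG00000060802, chromosome 2, 122147686 to 122153083, forward strand, mm10) encodes beta-2 microglobulin. Of the other 9 genes, 8 lie in the MHC region of chromosome 17. H2-K1 (33996017 to 34000347, reverse strand) and H2-D1 (35262730 to 35267499, forward strand) encode classical heavy chains. H2-Q1 (35320405 to 35325099, forward) and H2-Q2 (35342242 to 35346762, forward) encode chains of the Qa group, and H2-T3 (36185572 to 36190287, reverse) encodes the thymus leukaemia antigen, a chain known from mouse intestinal epithelium that binds CD8 alpha homodimers. Psmb9 (34181987 to 34187764, reverse), Tap1 (34187553 to 34197225, forward) and Psmb8 (34197721 to 34201454, forward) stand side by side and encode an immunoproteasome subunit, a subunit of the peptide transporter and a second immunoproteasome subunit. Nlrc5 (chromosome 8, 94434356 to 94527272, forward) encodes the transactivator of class I genes.

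The stretches before the start sites are shown for B2m, H2-D1, H2-K1 and H2-T3, together with the interval shared by Psmb9 and Tap1. They are from RefSeq, build GRCm38.p6, read 5′ to 3′ along the gene's strand and ending at the base before the RefSeq start. Capitals mark matches on either strand to a paired interferon-type element (GAAA, any 2 bases, GAAA), to GAANNGAAA (the same, 1 base shorter), to a palindromic NF-kB-type element that starts with GGGGA and to CCAAT (the CCAAT box, which reads ATTGG on the other strand). The B2m stretch is chr2:122147437-122147686 (+), that of H2-D1 is chr17:35262844-35263093 (+), that of H2-K1 is chr17:34000348-34000597 (-), that of H2-T3 is chr17:36190152-36190401 (-), and the Psmb9 to Tap1 interval is chr17:34187331-34187555, written along the strand of Tap1.
B2m: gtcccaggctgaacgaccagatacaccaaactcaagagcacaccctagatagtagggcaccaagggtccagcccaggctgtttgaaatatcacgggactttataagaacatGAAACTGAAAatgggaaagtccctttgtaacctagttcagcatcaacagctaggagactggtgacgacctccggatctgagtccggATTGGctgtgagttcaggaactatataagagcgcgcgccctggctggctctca
H2-D1: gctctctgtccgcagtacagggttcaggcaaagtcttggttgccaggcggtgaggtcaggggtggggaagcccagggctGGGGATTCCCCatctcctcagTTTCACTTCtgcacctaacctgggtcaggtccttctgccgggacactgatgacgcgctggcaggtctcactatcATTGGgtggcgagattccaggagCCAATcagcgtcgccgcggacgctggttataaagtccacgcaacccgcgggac
H2-K1: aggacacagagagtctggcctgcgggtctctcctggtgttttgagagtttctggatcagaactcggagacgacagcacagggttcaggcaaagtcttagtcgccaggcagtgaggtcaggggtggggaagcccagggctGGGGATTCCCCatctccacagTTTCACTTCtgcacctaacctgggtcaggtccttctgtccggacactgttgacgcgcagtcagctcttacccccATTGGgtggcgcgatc
H2-T3: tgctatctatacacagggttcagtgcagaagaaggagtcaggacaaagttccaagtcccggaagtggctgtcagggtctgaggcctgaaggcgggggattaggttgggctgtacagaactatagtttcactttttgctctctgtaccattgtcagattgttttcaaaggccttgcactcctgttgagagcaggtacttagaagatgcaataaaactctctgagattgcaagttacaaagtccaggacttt
Psmb9 to Tap1 interval: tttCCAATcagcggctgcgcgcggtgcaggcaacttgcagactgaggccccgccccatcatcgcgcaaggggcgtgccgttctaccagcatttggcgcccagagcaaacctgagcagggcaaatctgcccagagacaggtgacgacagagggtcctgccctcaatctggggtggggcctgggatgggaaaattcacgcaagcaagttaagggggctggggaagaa

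B2m held the paired interferon-type element 139 to 130 bases before its start and a CCAAT box 53 to 49 bases before it. H2-D1 and H2-K1 each held the NF-kB-type element followed by the shorter interferon-type element, 171 to 161 and 150 to 142 bases before the start in H2-D1 and 111 to 101 and 90 to 82 bases before the start in H2-K1. The H2-T3 stretch held none of the motifs. Among 27025 promoters of this length, 3.04% held the paired interferon-type element, 6.34% held GAANNGAAA, 34.5% held CCAAT and 0.0222% held the NF-kB-type element, which is 6 promoters. TTCNNNGAA, a gamma-activated-type element held by 7.18% of promoters, was found before Psmb8, and CCAAT alone before H2-Q2, Tap1 and Psmb9. GAANNGAAA and the NF-kB-type element were added to the motifs searched after the sequences had been seen. Of the 10 genes, 8 were matched in the promoter table, and H2-Q1 and Nlrc5 were not. These matches describe letters in a window and were not set against binding data.

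**Figure D1:**
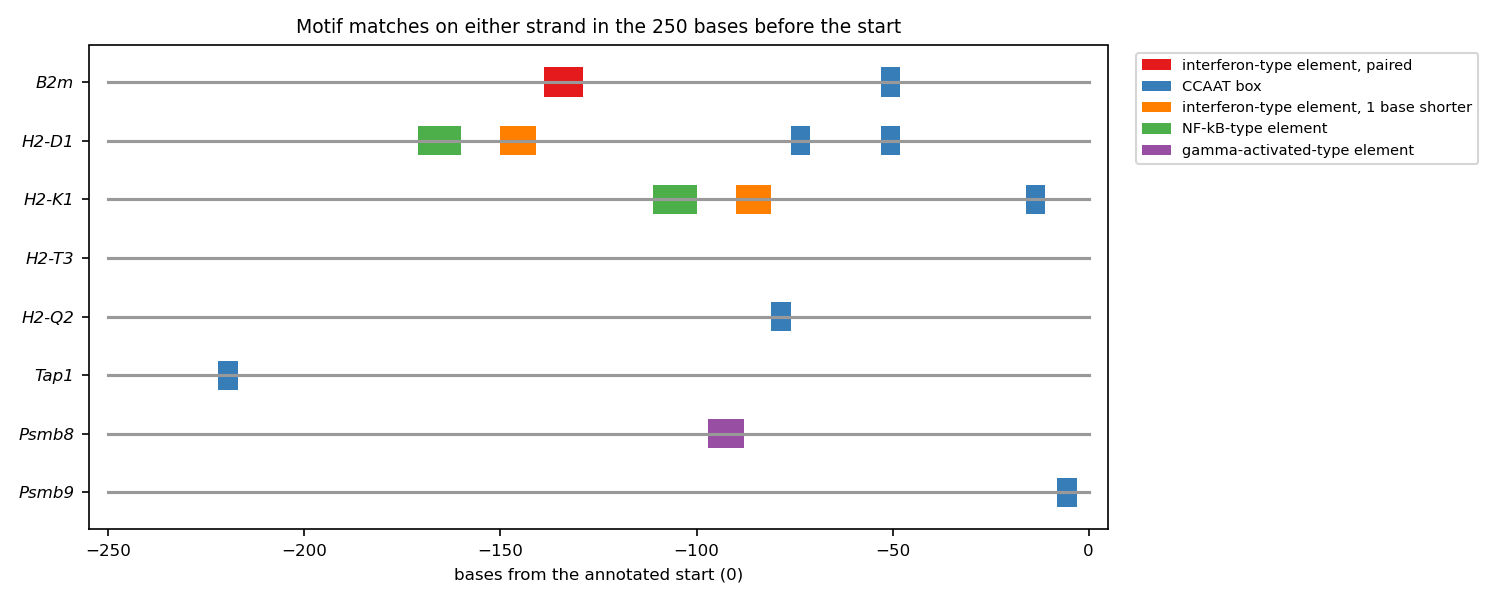
Motif matches in the 250 bases before the RefSeq start of the 8 matched genes; the horizontal axis gives bases from the start, each grey line is 1 gene and each coloured block is a match on either strand. H2-D1 and H2-K1 carry the NF-kB-type block and the shorter interferon-type block next to each other, B2m carries the paired interferon-type block, and the H2-T3 line is empty.

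The heavy chain genes are close relatives, so the counting of their 3' reads was checked. The longest reading frames of the class I chains were 69.0% to 88.3% identical, with H2-D1 and H2-K1 the closest pair. In the last 500 bases of the transcripts, 1 of 42 windows of 90 bases of H2-Q1 (2.38%) also stood in H2-Q2, and 0 of 42 windows of the other chains stood in another gene. The shared stretch stands in both genes, so H2-Q1 and H2-Q2 values are the ones that a shared read could touch. Windows began every 10 bases, so shared stretches between those steps could be missed.

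Cells were clustered without the 10 genes and without the other class I, class II and interferon-response genes listed below, and clusters were named from markers. Colonocyte-like cells (absorptive cells) numbered 1607 in the GFP library and 1848 in the whole epithelium library, and goblet-like cells (mucus cells) 1078 in the GFP library and 1138 in the whole epithelium library. Stem/TA-like cells (stem or transit-amplifying) numbered 1498 (GFP) and 1777 (whole epithelium), and enteroendocrine-like cells (hormone cells) 108 (GFP) and 318 (whole epithelium). The libraries fill each class from different clusters. Colonocyte-like GFP cells lay mostly in clusters c5, c15 and c17 and whole epithelium ones in c6, c13, c14 and c20. Stem/TA-like GFP cells lay in c3 and c10 and whole epithelium ones in c7, c8 and c9, and goblet-like GFP cells lay in c1 and whole epithelium ones mostly in c12, c16, c21 and c24. Cluster c7 was named from 3 raised markers and c10 from 4.

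The levels of the 10 genes by class are shown for both libraries in the plot that follows. In the whole epithelium library the colonocyte-like cells had the highest level of all 10 genes among the 4 classes. In the GFP library they did so for 5 genes (B2m, H2-T3, H2-Q1, H2-Q2 and Tap1), while enteroendocrine-like cells had the highest H2-D1, H2-K1 and Nlrc5 and stem/TA-like cells the highest Psmb8 and Psmb9.

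**Figure D2:**
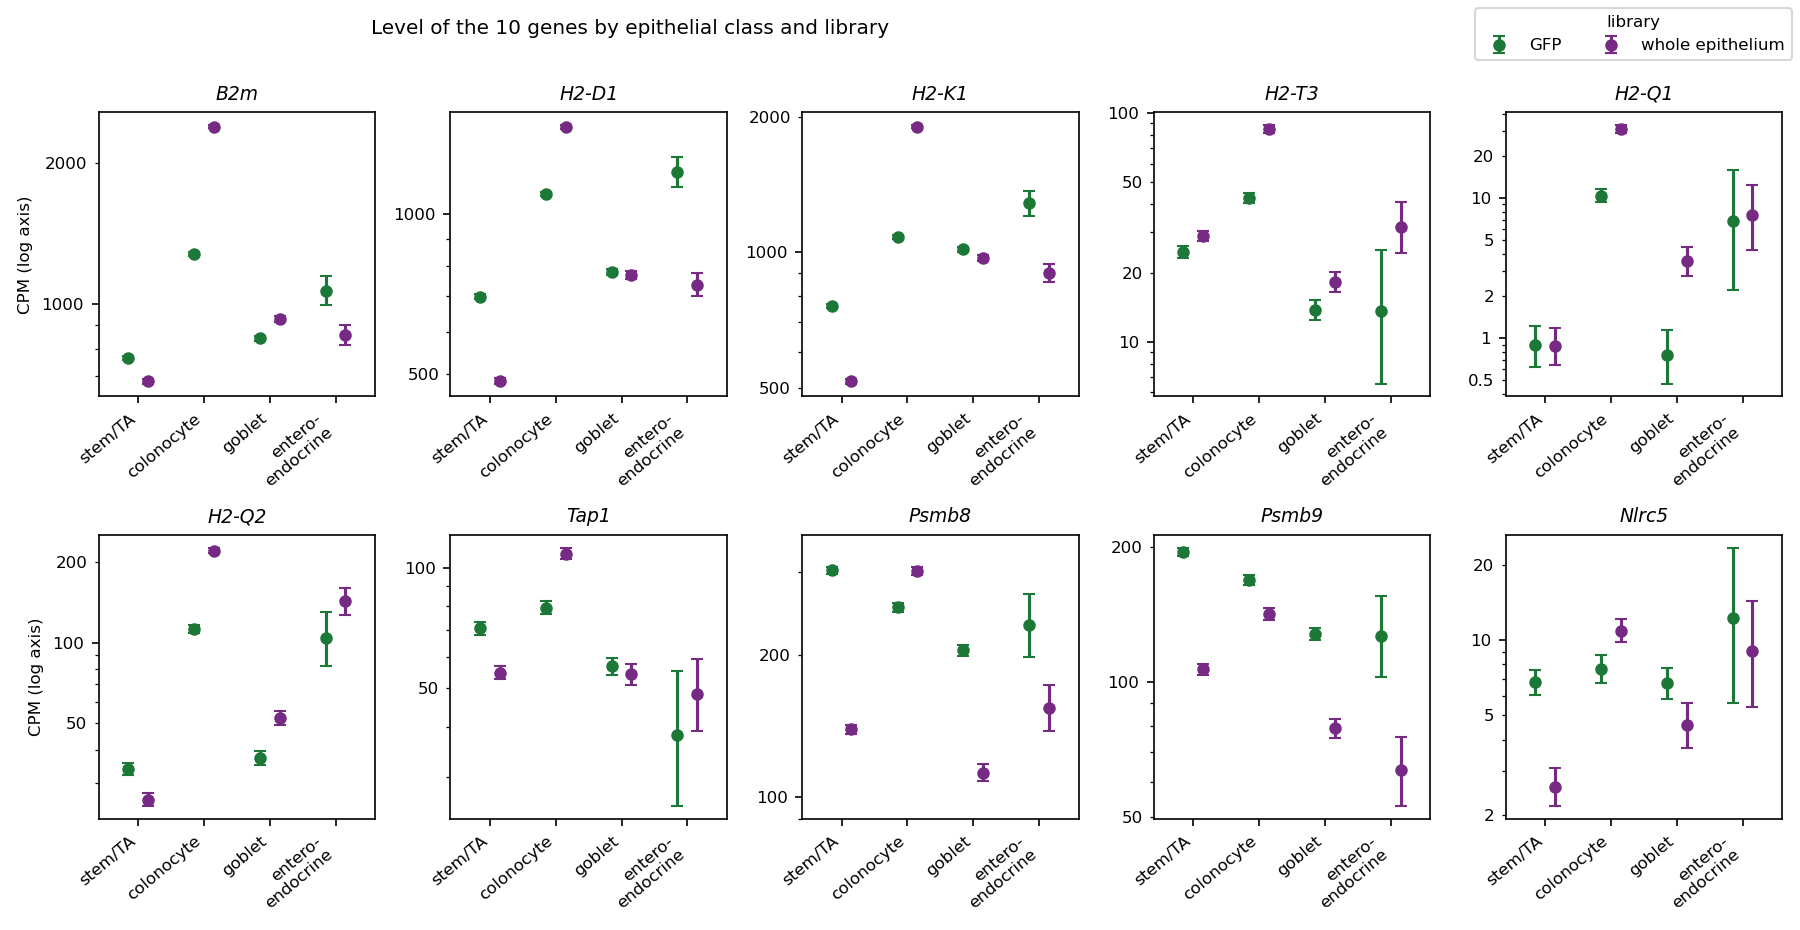
Level in CPM (log axis) of the 10 genes in stem/TA-like, colonocyte-like, goblet-like and enteroendocrine-like cells; green points are the GFP library, purple points the whole epithelium library, and bars are 95% Poisson intervals. The purple point is the highest of its panel in colonocyte-like cells for B2m, H2-D1 and H2-K1, and the green point lies above the purple one in stem/TA-like cells for Psmb8 and Nlrc5.

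B2m stood at 1277 CPM in GFP colonocyte-like cells, against 2396 CPM in whole epithelium ones. In enteroendocrine-like cells it stood at 1066 CPM in the GFP library and 856 CPM in the whole epithelium library, in goblet-like cells at 843 CPM (GFP) and 927 CPM (whole epithelium), and in stem/TA-like cells at 764 CPM (GFP) and 681 CPM (whole epithelium). No neighbouring intervals overlapped within either library, so that neighbours in the order of the 4 classes differed beyond counting error in both. The highest class exceeded the lowest 1.67-fold in the GFP library and 3.52-fold in the whole epithelium library.

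H2-K1 stood at 1082 CPM in GFP colonocyte-like cells, against 1900 CPM in whole epithelium ones, and at 759 CPM in GFP stem/TA-like cells, against 517 CPM in whole epithelium ones. H2-D1 stood at 1092 CPM in GFP colonocyte-like cells, against 1458 CPM in whole epithelium ones, and at 699 CPM in GFP stem/TA-like cells, against 486 CPM in whole epithelium ones. Both classical heavy chains thus spanned a wider range between these classes in the whole epithelium library. In goblet-like cells the libraries were near each other, with H2-K1 at 1014 CPM (GFP) and 970 CPM (whole epithelium) and H2-D1 at 779 CPM (GFP) and 768 CPM (whole epithelium). In enteroendocrine-like cells H2-K1 stood at 1284 CPM (GFP) and 900 CPM (whole epithelium), and H2-D1 at 1202 CPM (GFP) and 737 CPM (whole epithelium).

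The 3 class Ib chains spanned the widest range between the classes. H2-Q1 had 10.4 CPM in GFP colonocyte-like cells, against 31.1 CPM in whole epithelium ones, and 0.887 CPM in GFP stem/TA-like cells, against 0.878 CPM in whole epithelium ones, which is 37 UMIs in GFP and 45 UMIs in whole epithelium cells. H2-Q2 had 112 CPM in GFP colonocyte-like cells, against 220 CPM in whole epithelium ones, and 33.8 CPM in GFP stem/TA-like cells, against 26.0 CPM in whole epithelium ones. H2-T3 had 42.5 CPM in GFP colonocyte-like cells, against 85.1 CPM in whole epithelium ones, and 24.6 CPM in GFP stem/TA-like cells, against 29.0 CPM in whole epithelium ones. For each of these 3 chains the colonocyte-like cells were the highest class in both libraries, with a margin beyond counting error except over enteroendocrine-like cells for H2-Q1 and H2-Q2 in the GFP library.

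H2-T3 was also counted in T/NK-like cells, at 13.1 CPM in the GFP library (2 UMIs) and 19.2 CPM in the whole epithelium library (29 UMIs). Goblet marker genes summed to 21216 CPM (GFP) and 1912 CPM (whole epithelium) in those cells. The T/NK-like values are no floor, since stem/TA-like clusters lay lower, at 5.20 CPM in c10 (GFP) and 3.04 CPM in c7 (whole epithelium). The goblet-like levels of H2-T3, 13.7 CPM in the GFP library and 18.2 CPM in the whole epithelium library, lay near the T/NK-like ones. Counting shares of cells with at least 1 UMI after thinning to 2000 UMIs per cell, H2-T3 was seen in 7.12% of GFP and 13.3% of whole epithelium colonocyte-like cells and in 4.27% of GFP and 5.09% of whole epithelium stem/TA-like cells, against 7.69% of 26 GFP and 2.24% of 223 whole epithelium T/NK-like cells. The first of these T/NK-like shares rests on 2 cells.

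Tap1 stood at 79.5 CPM in GFP colonocyte-like cells, against 108 CPM in whole epithelium ones, and at 70.6 CPM in GFP stem/TA-like cells, against 54.6 CPM in whole epithelium ones. In the GFP library alone, the immunoproteasome subunits stood out from the chains, with stem/TA-like cells as their highest class. In the whole epithelium library colonocyte-like cells were highest for them as for the chains, and Psmb8 had the order of classes of H2-T3. Psmb8 stood at 303 CPM in GFP stem/TA-like cells, against 139 CPM in whole epithelium ones, and at 253 CPM in GFP colonocyte-like cells, against 301 CPM in whole epithelium ones. Psmb9 stood at 195 CPM in GFP stem/TA-like cells, against 107 CPM in whole epithelium ones, and at 169 CPM in GFP colonocyte-like cells, against 142 CPM in whole epithelium ones. Nlrc5 was low throughout, at 6.79 CPM in GFP stem/TA-like cells, against 2.60 CPM in whole epithelium ones, and at 7.68 CPM in GFP colonocyte-like cells, against 10.9 CPM in whole epithelium ones.

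Here and below, "past 2-fold" means at least 2-fold with an interval that leaves out 0, except in the equal-weight alternatives given at the end. Between the libraries, over all kept cells, 1 of the 10 genes fell past 2-fold in the GFP library. That gene was H2-Q1, at 4.04 CPM in GFP cells and 9.35 CPM in whole epithelium cells (log2 ratio -1.21). Of all 15223 genes compared, 9.64% were that much lower in the GFP library and 3.77% that much higher, so 1 of 10 is at the background. The median log2 ratio of the 10 genes was -0.08, against -0.03 over all genes. By class, the picture divides.

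In colonocyte-like cells 9 of the 10 genes were lower in the GFP library, each with an interval below 0, and 2 of them fell past 2-fold against a background of 5.56%. H2-Q1 had a log2 ratio of -1.58 (interval -1.76 to -1.40) and H2-T3 one of -1.0, at the threshold itself, so that it fell short of 2-fold when, for example, cells with a Ptprc UMI (the CD45 gene) were left out. B2m (-0.91, interval -0.92 to -0.89), H2-Q2 (-0.97) and H2-K1 (-0.81) lay short of 2-fold. Psmb9 was the exception with a log2 ratio of 0.25, and no gene rose past 2-fold (background 4.28%). The median over the 10 genes was -0.66, against -0.04 over all genes, of which 55.2% were lower.

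In stem/TA-like cells 9 of the 10 genes were higher in the GFP library, 8 of them with an interval above 0, and 2 rose past 2-fold against a background of 4.09%. Nlrc5 had 283 UMIs in GFP cells and 133 UMIs in whole epithelium cells (log2 ratio 1.39, interval 1.08 to 1.69), and Psmb8 had a log2 ratio of 1.12 (interval 1.08 to 1.16). Psmb9 (0.87), H2-K1 (0.56) and H2-D1 (0.53) lay short of 2-fold, H2-T3 (-0.24) was lower, and no gene fell past 2-fold (background 5.59%). The median over the 10 genes was 0.45, against 0.04 over all genes, of which 54.3% were higher. Colonocyte-like and stem/TA-like cells thus stood on opposite sides of 0 for 7 of the 10 genes with intervals that leave out 0 in both classes. How many of all genes did so was not counted. Such intervals were common, with 2742 above 0 and 3790 below among 12104 genes in colonocyte-like cells. In stem/TA-like cells 4620 were above 0 and 3614 below among 13303 genes.

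In goblet-like cells H2-Q1 fell past 2-fold (22 UMIs in GFP cells and 73 UMIs in whole epithelium cells, log2 ratio -2.24) against a background of 5.0%, and no gene rose past it against 2.96%. Psmb8 had a log2 ratio of 0.86 and Psmb9 one of 0.70 there, while H2-D1 (0.02) and H2-K1 (0.06) were near 0. In enteroendocrine-like cells H2-T3 fell past 2-fold (10 UMIs in GFP cells and 63 UMIs in whole epithelium cells, log2 ratio -1.22) against a background of 4.05%. The heavy chains H2-D1 (0.71) and H2-K1 (0.51) and the subunit Psmb9 (1.0 after rounding, just short of 2-fold) were higher in GFP cells of that class, with none past 2-fold against 3.02%.

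**Figure D3:**
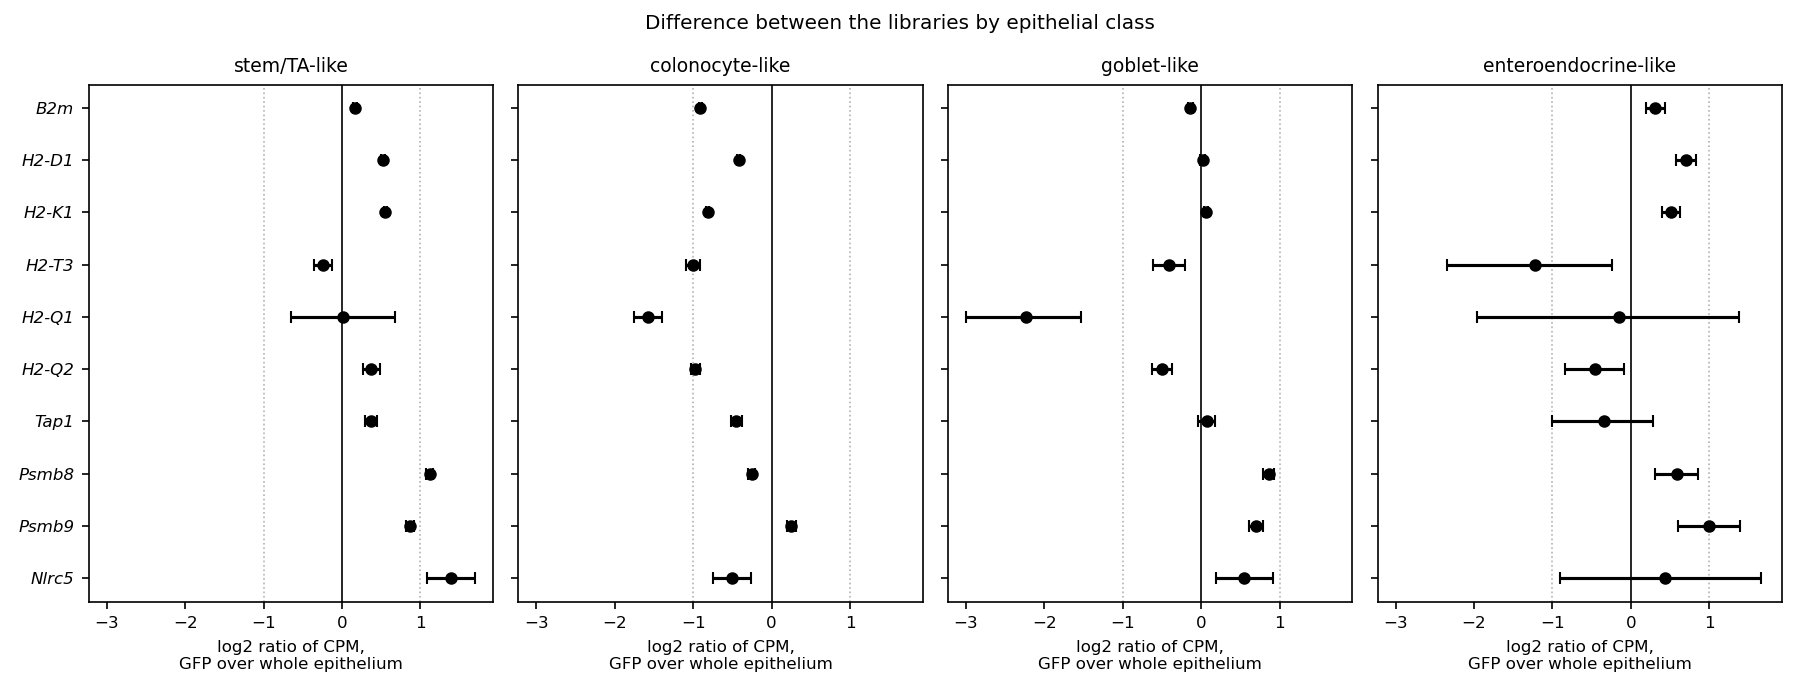
Log2 ratio of CPM, GFP over whole epithelium, of the 10 genes in 4 classes; points are ratios, bars are 95% intervals for counting error, and dotted lines mark 2-fold. In colonocyte-like cells 9 points lie left of 0 and in stem/TA-like cells 9 points lie right of it.

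Within each library the gap between colonocyte-like and stem/TA-like cells was then compared. In the GFP library 8 of the 10 genes were higher in colonocyte-like cells, 7 of them with an interval above 0 and 2 past 2-fold (H2-Q1, log2 ratio 3.56, and H2-Q2, 1.73), against a background of 8.66%. In the whole epithelium library all 10 were higher and 8 were past 2-fold, against a background of 12.5%, among them H2-Q1 (5.15), H2-Q2 (3.08), Nlrc5 (2.07), H2-K1 (1.88), B2m (1.82), H2-D1 (1.59) and H2-T3 (1.55). The median log2 ratio over the 10 genes was 0.58 in the GFP library and 1.70 in the whole epithelium library. The gap was smaller in the GFP library for all 10 genes, by 0.62 (Psmb9) to 1.89 (Nlrc5) on the log2 scale. The share of all genes with a smaller gap was not computed. The sign differed for Psmb8, with log2 ratios of -0.26 in the GFP library and 1.11 in the whole epithelium library, and for Psmb9, with -0.21 in the GFP library and 0.41 in the whole epithelium library. Among the RNA of other cells and of handling, T/NK marker genes summed to 1.09 CPM in GFP and 11.3 CPM in whole epithelium colonocyte-like cells and to 1.01 CPM in GFP and 5.43 CPM in whole epithelium stem/TA-like cells. Dissociation-stress genes summed to 9018 CPM in GFP and 11911 CPM in whole epithelium colonocyte-like cells and to 8361 CPM in GFP and 14603.2 CPM in whole epithelium stem/TA-like cells. The part of either in the differences was not tested. Without cells holding a Ptprc UMI, B2m in colonocyte-like cells had the same log2 ratio, -0.91. Only 9 GFP and 14 whole epithelium cells of that class held one, so leaving them out could hardly move the sum. RNA of lymphocytes in the remaining cells is not addressed by it.

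The proportions among the genes differed as well. Per UMI of H2-D1 and H2-K1 together, colonocyte-like cells had 0.587 B2m UMIs in the GFP library and 0.713 in the whole epithelium library, and stem/TA-like cells 0.523 in the GFP library and 0.679 in the whole epithelium library. The light chain gene was thus lower relative to these heavy chains in the GFP library. Per UMI of Psmb5, the constitutive subunit that Psmb8 replaces, stem/TA-like cells had 1.22 Psmb8 UMIs in the GFP library and 0.574 in the whole epithelium library, and colonocyte-like cells 1.80 in the GFP library and 2.33 in the whole epithelium library. Per UMI of Psmb6, which Psmb9 replaces, stem/TA-like cells had 0.683 Psmb9 UMIs in the GFP library and 0.416 in the whole epithelium library. Colonocyte-like cells had 1.04 (GFP) and 0.897 (whole epithelium). Per UMI of Psmb7, UMIs of Psmb10, another immunoproteasome gene, stood at 1.57 (GFP) and 1.51 (whole epithelium) in stem/TA-like cells. In colonocyte-like cells they stood at 2.52 (GFP) and 3.67 (whole epithelium). In GFP stem/TA-like cells the immunoproteasome share was thus higher for Psmb8 and Psmb9, while that of Psmb10 was near equal in the libraries.

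Clusters inside a class differed widely. Among colonocyte-like clusters, B2m ran from 996 CPM (c17) to 1707 CPM (c15) in the GFP library, and up to 5483 CPM (c20) and 3786 CPM (c14) in the whole epithelium library. Among stem/TA-like clusters, it stood at 604 CPM (c3) and 1042 CPM (c10) in the GFP library, and at its lowest, 457 CPM, in c7 of the whole epithelium library. Cluster c20, where H2-K1 (5138 CPM), Tap1 (242 CPM), H2-Q1 (118.7 CPM) and Nlrc5 (27.4 CPM) were also high, had a median of 6070 UMIs per cell. Within these 2 classes the cluster ranges of the libraries overlapped for all of the 10 genes but H2-Q1 in colonocyte-like cells (all GFP clusters lower) and H2-D1, H2-K1, H2-Q2 and Psmb8 in stem/TA-like cells (all GFP clusters higher). The share of all genes that separate in this way was not computed. With only 2 GFP and 3 whole epithelium clusters in the stem/TA-like class, no result about the 10 genes is read from it.

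**Figure D4:**
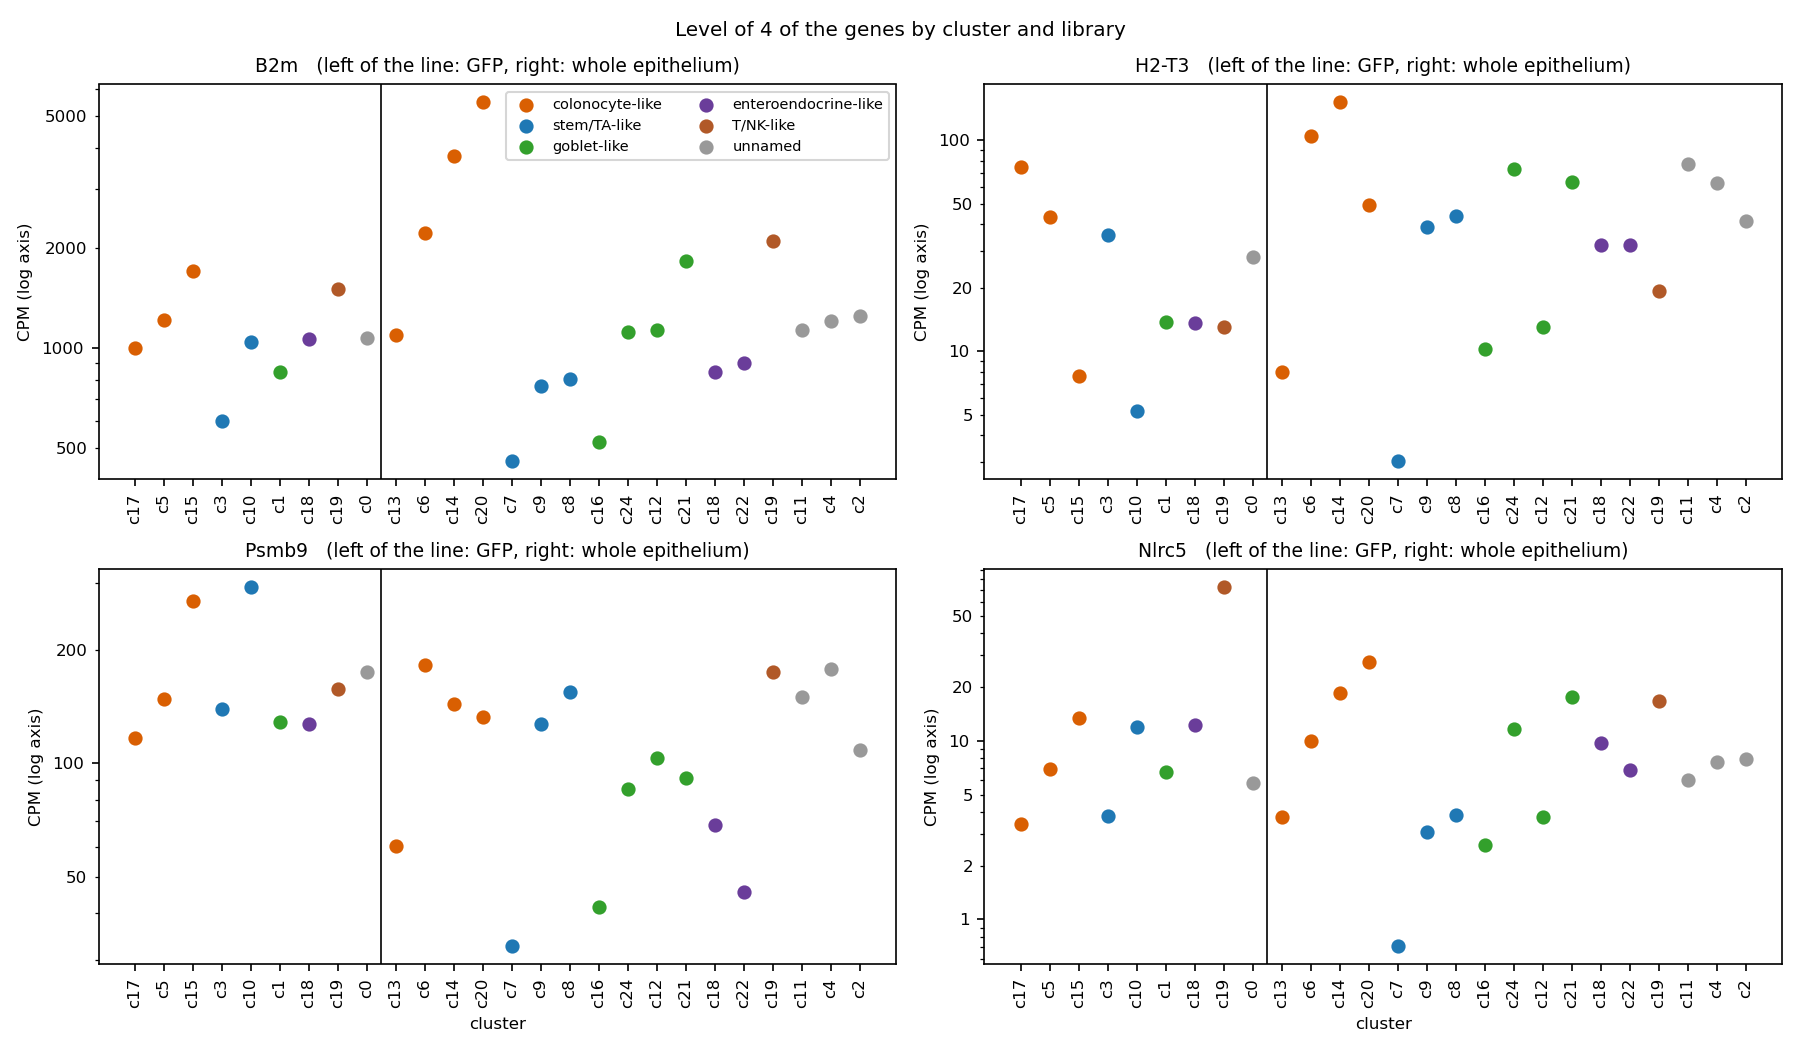
Level in CPM (log axis) of B2m, H2-T3, Psmb9 and Nlrc5 in each cluster with at least 50 cells in a library; points are clusters coloured by class, GFP left of the vertical line and whole epithelium right of it. Clusters c10 and c15 of the GFP library are high in Psmb9 and low in H2-T3, while c7 of the whole epithelium library is low in all 4 genes.

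GFP clusters c15 and c10 stood apart from the other GFP clusters of their classes. Psmb8 reached 459 CPM in c15 and 453 CPM in c10, Psmb9 268 CPM in c15 and 293 CPM in c10, and Nlrc5 13.3 CPM in c15, while H2-T3 stood at 7.66 CPM in c15 and 5.20 CPM in c10. GFP clusters were paired with the most like whole epithelium cluster of the same class, so that unnamed clusters were not candidates. Likeness was taken over 9671 genes, without mitochondrial genes and the genes left out of the clustering. The cluster paired with c10 was c7 (correlation 0.795), although the markers of c10 scored highest for cycling cells and those of c7 for stem cells. The cluster paired with c15 was c13 (0.835). In c10 over c7, 9 of the 10 genes had intervals above 0 and 7 were past 2-fold, against a background of 6.46%: Nlrc5 had a log2 ratio of 4.07 (182 UMIs in c10 and 12 in c7), Psmb8 3.17, Psmb9 3.16, Tap1 2.50, H2-K1 1.37, B2m 1.19 and H2-D1 1.13. In c15 over c13, 4 were past 2-fold against a background of 5.12% (Psmb9 2.16, Tap1 2.07, Psmb8 1.84 and Nlrc5 1.83), and H2-Q1 had a log2 ratio of -0.71.

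Other pairs went the other way or stayed near 0. In c5 over c6 (correlation 0.911), both colonocyte-like, all 10 genes had intervals below 0, with 2 past 2-fold, against a background of 5.64%, and a median of -0.76. In c17 over c6, 9 did, with 4 past 2-fold against 4.64%. In c3 over c8, both stem/TA-like, 3 genes had intervals above 0 and 4 below, with a median of -0.08. Clusters c9, c14 and c20 of the whole epithelium library were not part of these pairs, and the pairs were formed after the data had been seen. Paired clusters were not equal in other genes. The colonocyte marker Tgm3 had log2 ratios of -2.11 in c5 over c6 and -5.42 in c17 over c6. It had -1.51 in c15 over c13, -2.45 in c10 over c7 and -0.56 in c3 over c8. For Fabp6 they were -6.61 in c5 over c6, -4.39 in c17 over c6 and -1.87 in c15 over c13. In c3 over c8 Fabp6 had -1.81 and in c10 over c7 0.70.

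Clusters c7, c10, c13 and c15 were among those with high counts of the posterior homeobox genes Hoxd13 and Hoxb13, which are known to mark the hind end of the gut. Hoxd13 stood at 35.3 CPM in c10 of the GFP library and 26.4 CPM in c7 of the whole epithelium library, and at 11.6 CPM in c15 (GFP) and 26.1 CPM in c13 (whole epithelium). It stood at 0.943 CPM in c3 (GFP) and 1.23 CPM in c8 (whole epithelium), and at 0.829 CPM in c5 (GFP) and 0.476 CPM in c6 (whole epithelium). The goblet-like pair was unequal, with 10.4 CPM in c1 (GFP) and 0.523 CPM in c12 (whole epithelium), and the enteroendocrine-like cluster c18 had 21.9 CPM (GFP, 16 UMIs) and 9.07 CPM (whole epithelium, 14 UMIs). Hoxd13 over all kept cells was similar in the libraries, at 9.36 CPM (GFP) and 7.04 CPM (whole epithelium). Cells of each class were therefore divided into those with and without a Hoxd13 UMI, a split chosen after the data had been seen and made in both libraries by the same rule.

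Colonocyte-like cells with a Hoxd13 UMI numbered 73 in the GFP library and 115 in the whole epithelium library, stem/TA-like ones 223 (GFP) and 199 (whole epithelium), and goblet-like ones 127 (GFP) and 83 (whole epithelium). They were deeper than cells without one in 5 of the 6 cases, as in GFP colonocyte-like cells with a median of 22592 UMIs with and 18327 UMIs without, so that the cells without a UMI include some that would show one at greater depth. For most of the 10 genes the 2 libraries moved in opposite directions across this split.

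In GFP stem/TA-like cells B2m stood at 1076 CPM with a Hoxd13 UMI and 700.04 CPM without, whereas in whole epithelium stem/TA-like cells it stood at 369 CPM with and 721 CPM without. Psmb9 stood at 320.6 CPM with and 170 CPM without in GFP stem/TA-like cells, and at 29.3 CPM with and 117 CPM without in whole epithelium ones. In the GFP library 7 of the 10 genes were higher with Hoxd13 in each of the 3 classes, with medians of 0.66 in stem/TA-like, 0.20 in colonocyte-like and 0.41 in goblet-like cells on the log2 scale. Of all genes compared in that library, 49.0% were higher with Hoxd13 in stem/TA-like, 55.3% in colonocyte-like and 58.1% in goblet-like cells, with medians of -0.01, 0.05 and 0.06. The 3 genes that were not higher were H2-T3, H2-Q1 and H2-Q2 in each class. In the whole epithelium library all 10 were lower with Hoxd13 in stem/TA-like cells (median -1.62) and in colonocyte-like cells (median -1.39), and 9 were lower in goblet-like cells (median -0.73). Of all genes compared there, 61.0% were lower with Hoxd13 in stem/TA-like (median -0.10), 44.5% in colonocyte-like (median 0.07) and 53.0% in goblet-like cells (median -0.03).

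Past 2-fold, 8 genes were lower with Hoxd13 in whole epithelium colonocyte-like cells (background 4.71%), 5 in stem/TA-like cells (6.71%) and 2 in goblet-like cells (3.2%). In the GFP library, 1 gene was lower past 2-fold in each class, H2-T3 each time (backgrounds 1.59% in colonocyte-like, 2.71% in stem/TA-like and 3% in goblet-like cells). Nlrc5 was higher past 2-fold in GFP stem/TA-like cells (background 3.43%), and Psmb8, Psmb9 and Nlrc5 in GFP goblet-like cells (2.52%). H2-T3 was the 1 gene past 2-fold in the same direction in both libraries, with log2 ratios of -2.97 (GFP) and -2.87 (whole epithelium) in stem/TA-like cells and -1.31 (GFP) and -2.54 (whole epithelium) in colonocyte-like cells. In goblet-like cells its log2 ratio was -1.72 (GFP) and -0.30 (whole epithelium), the second with an interval that holds 0.

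**Figure D5:**
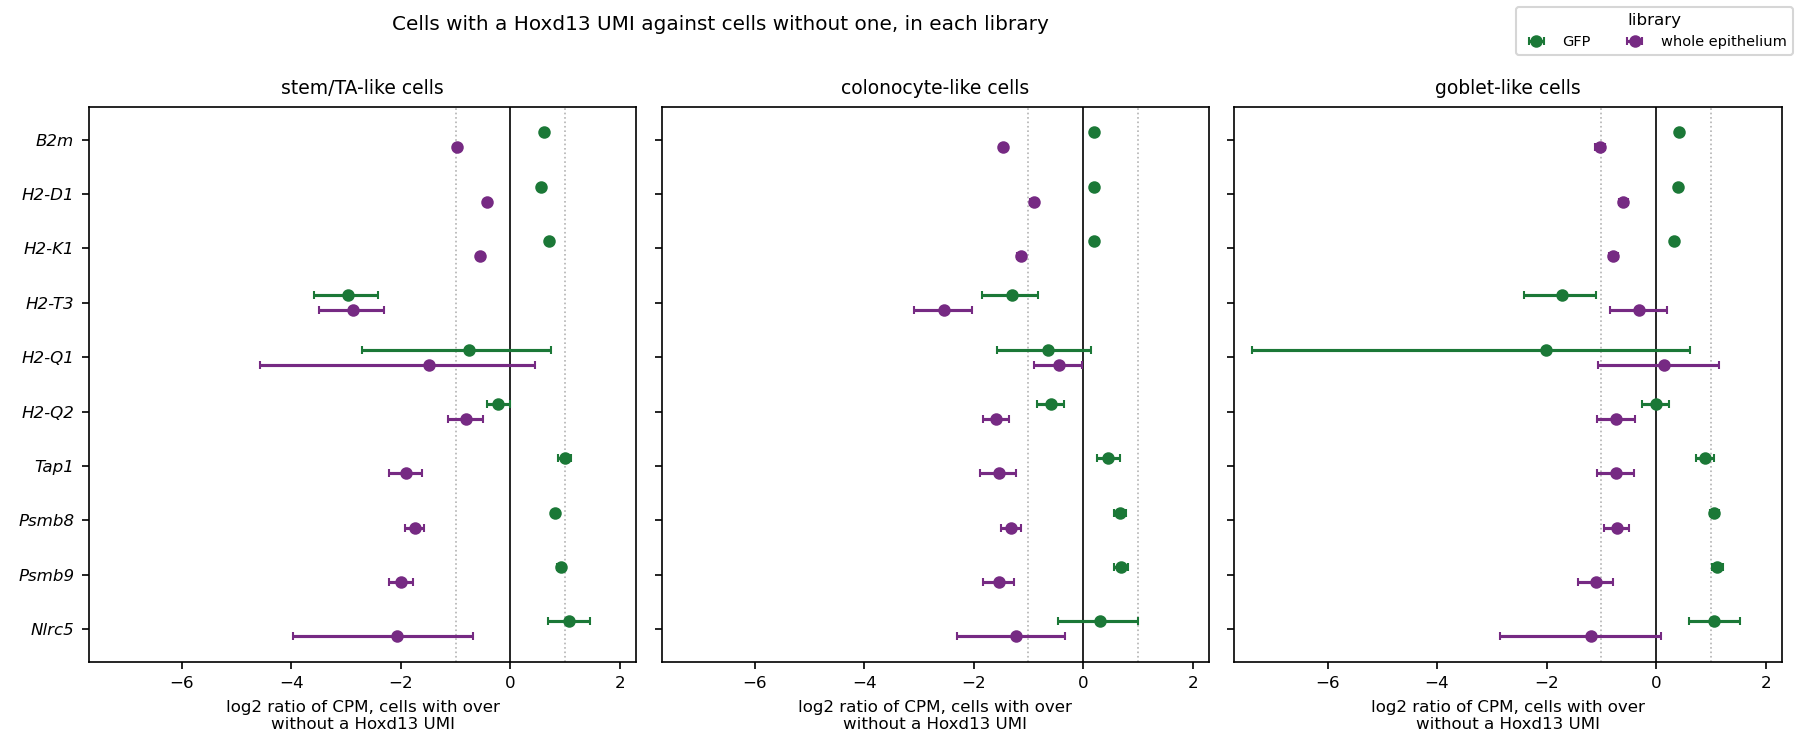
Log2 ratio of CPM of the 10 genes, cells with over cells without a Hoxd13 UMI, within each library (green GFP, purple whole epithelium) and class; bars are 95% intervals for counting error and dotted lines mark 2-fold. For B2m, H2-D1, H2-K1, Tap1, Psmb8 and Psmb9 the green points lie right of 0 and the purple ones left of it in all 3 classes, while both H2-T3 points lie left of 0.

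Set between the libraries, the split gives the same values another way. With a Hoxd13 UMI, 7 of the 10 genes were past 2-fold higher in GFP stem/TA-like cells, against a background of 6.61%, with a median of 1.58. Psmb8 stood at 474 CPM in GFP and 45.1 CPM in whole epithelium cells (log2 ratio 3.39), Psmb9 had a log2 ratio of 3.45, Nlrc5 of 4.15 (85 UMIs in GFP and 4 in whole epithelium cells), Tap1 of 2.91, H2-K1 of 1.62, B2m of 1.54 and H2-D1 of 1.36. In colonocyte-like cells with a Hoxd13 UMI, Psmb9 (2.38), Psmb8 (1.62) and Tap1 (1.46) were higher past 2-fold (background 4.31%) and H2-Q1 (-1.77) lower (4.61%), with a median of 0.65. In goblet-like cells with one, 6 genes were higher past 2-fold (4.42%), led by Psmb9 (2.58), Nlrc5 (2.47) and Psmb8 (2.35), H2-T3 (-1.68) was lower (3.46%), and the median was 1.10. Without a Hoxd13 UMI, the medians were -0.73 in colonocyte-like, 0.35 in stem/TA-like and -0.15 in goblet-like cells. B2m without it stood at 1266 CPM in GFP and 2496 CPM in whole epithelium colonocyte-like cells.

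Genes of class II and of its induction, in the same split, also had higher ratios in cells with a Hoxd13 UMI than in those without. Cd74, the invariant chain of MHC class II, had a log2 ratio of 5.48 in stem/TA-like cells with a Hoxd13 UMI and 1.28 in those without, and of 5.14 with and 1.84 without in colonocyte-like cells, GFP over whole epithelium. In colonocyte-like cells without one, Cd74 was thus higher in the GFP library, while the median of the 10 genes was -0.73. Ciita, the class II transactivator, had log2 ratios of 5.17 in stem/TA-like, 3.66 in colonocyte-like and 2.46 in goblet-like cells with a Hoxd13 UMI. Without one, the Ciita ratios were 0.08 in stem/TA-like, 0.29 in colonocyte-like and 0.10 in goblet-like cells. Irf1, a transcription factor of the interferon gamma response, had a log2 ratio of 1.76 in stem/TA-like cells with a Hoxd13 UMI and of -0.17 in those without. It was thus higher in GFP cells with Hoxd13 and lower in GFP cells without it. Cluster c10 held 1901 CPM of Cd74, against 31.1 CPM in c7, and c15 held 2870 CPM, against 67.2 CPM in c13.

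The remainder of the pathway is given by lists, for GFP over whole epithelium in all kept cells. Of 14 peptide loading genes, 8 were higher and 6 lower, none past 2-fold in either direction, with a median of 0.03, and Tap2, the partner of Tap1, had a log2 ratio of 0.09 and tapasin (Tapbp) one of -0.24. Of 6 other immunoproteasome and PA28 genes, 2 were higher and 4 lower, none past 2-fold (Psmb10 -0.26, Psme1 -0.21, Psme2 0.10). Of 31 constitutive proteasome genes, 20 were higher and 11 lower, none past 2-fold, with a median of 0.05. Of 15 other class I and class I-like genes, 9 were higher and 6 lower, with H2-Q10 (1.77) and Ulbp1 (1.38) past 2-fold higher, against a background of 3.77%. These lists lay near the median of all genes, -0.03.

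Of 22 regulators of class I genes, 8 were higher and 14 lower. Of them 1 fell past 2-fold, against a background of 9.64%, namely Irf7 (-1.23), a factor of the type I interferon response. Irf1 (-0.11) and Rfx5 (-0.27), a subunit of the complex that Nlrc5 joins at promoters, did not. Interferon-stimulated, dissociation-stress and class II genes stood away from the median of all genes. All 36 interferon-stimulated genes were lower in the GFP library, 16 past 2-fold against a background of 9.64%, with a median of -0.81, led by Ifi27l2b (-4.08), Ifit2 (-2.84), Cxcl9 (-2.65) and Rsad2 (-1.94), with Isg15 at -1.38 and Bst2 at -1.17. Of 20 dissociation-stress genes, 19 were lower, 4 past 2-fold against the same background, with a median of -0.82. All 7 class II genes were higher, 6 past 2-fold against a background of 3.77%, with a median of 1.72, led by H2-Aa (2.24), H2-DMb1 (2.05), H2-Ab1 (1.75) and H2-Eb1 (1.72), with Cd74 at 1.69 and Ciita at 0.54.

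By class, the same lists moved as follows. In colonocyte-like cells all 36 interferon-stimulated genes were lower in the GFP library, 24 past 2-fold against a background of 5.56%, with a median of -1.24. In stem/TA-like cells 29 were lower and 7 higher, with 11 past 2-fold lower against a background of 5.59% and a median of -0.47. Class II genes had 6 of 7 past 2-fold higher in both classes, against backgrounds of 4.28% in colonocyte-like and 4.09% in stem/TA-like cells, with medians of 1.98 in colonocyte-like and 1.77 in stem/TA-like cells. Among the other class I chains, H2-Q6 (-1.49), H2-Q4 (-1.41) and H2-T23 (-1.02, the Qa-1 chain) fell past 2-fold in colonocyte-like cells (background 5.56%), and H2-Q10 (2.20), H2-Q7 (1.55) and Ulbp1 (1.41) were among the 4 that rose past it in stem/TA-like cells (background 4.09%). Tap2 had log2 ratios of -0.32 in colonocyte-like and 0.77 in stem/TA-like cells, the same signs as Tap1.

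The lymphocyte side was read from 7 receptors of class I and class I-like ligands. All were past 2-fold lower in the GFP library, against a background of 9.64%, led by Cd160 (-5.65), Klrk1 (-5.50) and Klrd1 (-4.71). Cd8a, the partner of H2-T3, had 39 UMIs in GFP and 492 UMIs in whole epithelium cells (-3.31). Ptprc stood at 1.46 CPM in the GFP library and 6.97 CPM in the whole epithelium library, and T/NK-like cells numbered 56 in the GFP library and 249 in the whole epithelium library. The GFP library was sorted, so fewer lymphocytes and less of their RNA cannot be told apart from the sort.

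The genes of most like pattern were sought among genes other than the 10, over the 26 clusters with at least 50 cells in a library (9 GFP and 17 whole epithelium), as Pearson correlations of log2(CPM + 1) centred within each library, over 9352 genes. These are descriptions, since clusters of 1 library share animals and handling. Of these other genes, Tap2 was most like B2m (0.94), H2-D1 (0.95) and H2-K1 (0.92). Within the 10, B2m correlated with H2-D1 at 0.95 and with H2-K1 at 0.95, and H2-D1 with H2-K1 at 0.97. Tap1 was most like Igtp (0.95), an interferon-inducible GTPase, H2-Q2 most like Irf7 (0.94), Psmb8 most like Tapbpl (0.95), Psmb9 most like Cd74 (0.90) and Nlrc5 most like Parp10 (0.86). H2-T3 stood with Prpsap1 (0.94), Isx (0.92), an intestinal homeobox gene, and Cyp2c65 (0.92), and H2-Q1 with Ces2c (0.96), a carboxylesterase. H2-T3 and Psmb8 correlated at -0.80 over the GFP clusters and 0.71 over the whole epithelium clusters, while Tap1 and Psmb8 correlated at 0.85 in both.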

How the data were processed

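The deposited matrices hold UMI counts for each gene and barcode. The authors made them on mm10 with Cell Ranger, given as 2.1.1 per the submitters' processing notes and as 3.1.0 per the file headers; the difference was not resolved. Crypts were released with EDTA and dissociated for 3' v2 droplet capture, per the labels' protocols. The 2 libraries held 150348319 UMIs (GFP) and 164185392 UMIs (whole epithelium). Each matrix was given to the sample whose barcode list has its number of columns.

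Barcodes were kept from 500 genes and 1000 UMIs upward if mitochondrial genes held no more than 25% of UMIs. Both libraries were clustered together with scanpy 1.11.5 and leidenalg 0.10.2 (2000 variable genes, 30 components, 15 neighbours, resolution 1.0). The 10 genes and the listed class I, peptide loading, immunoproteasome, class II and interferon-stimulated genes were left out of the variable genes. This gave 27 clusters. Clusters were named for the class whose markers scored highest, as a mean log2 level over the library's median cluster, given at least 3 markers raised 2-fold and a score of at least 0.5. Shallow clusters needed a score of 1.5 and a leading marker of their class, and shallow clusters without a name held 1373 GFP and 1864 whole epithelium cells. This naming rule was set with the data in view. Doublets were neither called nor removed.

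Counts were summed per class and library and given as CPM, with exact Poisson intervals for levels, exact conditional binomial intervals for log2 ratios and exact Clopper-Pearson intervals for shares, all at 95% and for counting error only. Past 2-fold means an absolute log2 ratio of at least 1 with an interval that leaves out 0, among genes with at least 20 UMIs over both groups compared. The alternatives with equal weight per cell or per cluster have no interval and use the ratio alone. The procedure was tested on simulated data. The 10 genes, the lists and the alternatives were chosen with earlier results of these data known. All 10 genes are named, with up to 4 genes of each list that had the largest log2 ratios past 2-fold over all kept cells and a fixed set of others, of which 1 is not reported here; in the text by class, further list members past 2-fold were named after their values were seen. Hoxd13, Hoxb13 and the pairs of clusters were also chosen after the data had been seen. Protein sequences were not used here, so identity between chains was taken from the longest reading frames of the transcripts.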

Additional observations from a re-analysis of the deposited data

Results flagged for a closer look

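None of the differences in this section was tested, since each group is 1 library. They are given because the 2 sides of a contrast moved in opposite directions beyond counting error. How many of all genes did so was not counted.

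Psmb8 and Psmb9, the immunoproteasome subunits, went opposite ways between colonocyte-like and stem/TA-like cells. The log2 ratio of colonocyte-like over stem/TA-like cells was -0.26 for Psmb8 in the GFP library and 1.11 in the whole epithelium library. For Psmb9 it was -0.21 in the GFP library and 0.41 in the whole epithelium library.

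GFP over whole epithelium had opposite signs in colonocyte-like and stem/TA-like cells for 7 genes. The log2 ratio was -0.91 in colonocyte-like and 0.17 in stem/TA-like cells for B2m, -0.42 in colonocyte-like and 0.53 in stem/TA-like cells for H2-D1, and -0.81 in colonocyte-like and 0.56 in stem/TA-like cells for H2-K1. It was -0.97 in colonocyte-like and 0.38 in stem/TA-like cells for H2-Q2, -0.45 in colonocyte-like and 0.37 in stem/TA-like cells for Tap1, -0.25 in colonocyte-like and 1.12 in stem/TA-like cells for Psmb8, and -0.50 in colonocyte-like and 1.39 in stem/TA-like cells for Nlrc5. Each of these genes was lower in GFP colonocyte-like cells and higher in GFP stem/TA-like cells.

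For some of the 10 genes, cells with a Hoxd13 UMI stood above cells without one in the GFP library and below them in the whole epithelium library. H2-T3, H2-Q1 and H2-Q2 did not show this in any of the 3 classes, and Nlrc5 showed it beyond counting error only in stem/TA-like cells. The values are log2 ratios of cells with over cells without a Hoxd13 UMI. In colonocyte-like cells they were 0.19 (GFP) and -1.46 (whole epithelium) for B2m, 0.19 (GFP) and -0.91 (whole epithelium) for H2-D1, and 0.20 (GFP) and -1.14 (whole epithelium) for H2-K1. In the same cells they were 0.46 (GFP) and -1.55 (whole epithelium) for Tap1, 0.66 (GFP) and -1.31 (whole epithelium) for Psmb8, and 0.69 (GFP) and -1.54 (whole epithelium) for Psmb9. The spread between the libraries was wider for the peptide supply genes than for the chains.

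In stem/TA-like cells they were 0.62 (GFP) and -0.97 (whole epithelium) for B2m, 0.56 (GFP) and -0.43 (whole epithelium) for H2-D1, and 0.71 (GFP) and -0.55 (whole epithelium) for H2-K1. They were 0.99 (GFP) and -1.90 (whole epithelium) for Tap1, 0.82 (GFP) and -1.75 (whole epithelium) for Psmb8, 0.92 (GFP) and -1.99 (whole epithelium) for Psmb9, and 1.08 (GFP) and -2.07 (whole epithelium) for Nlrc5. Nlrc5 rests on 4 UMIs in whole epithelium cells with Hoxd13.

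In goblet-like cells they were 0.42 (GFP) and -1.03 (whole epithelium) for B2m, 0.40 (GFP) and -0.60 (whole epithelium) for H2-D1, and 0.33 (GFP) and -0.78 (whole epithelium) for H2-K1. They were 0.90 (GFP) and -0.74 (whole epithelium) for Tap1, 1.07 (GFP) and -0.72 (whole epithelium) for Psmb8, and 1.12 (GFP) and -1.10 (whole epithelium) for Psmb9. The same 6 genes thus had opposite signs in the 2 libraries in all 3 classes.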

How the results depend on the processing

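No paired analysis was possible because each group is 1 library. Counts of the 10 genes past 2-fold moved as follows, GFP over whole epithelium, and the cause was not tested. Counts with equal weight per cell or per cluster have no interval, so for them past 2-fold is the size of the log2 ratio alone. At most 10% mitochondrial UMIs gave 0 lower in all kept cells, against 1, and 1 higher in goblet-like cells, against 0. In colonocyte-like cells 2 were lower; 1 was with CPM without mitochondrial genes, CPM without the 50 genes of highest UMIs, centring on the median gene, no cells with a Ptprc UMI, resolution 2.0 and clustering with the listed genes, 4 with equal weight per cluster and 5 with equal weight per cell. Cells with a Hoxd13 UMI gave 1 lower and 3 higher there, and B2m (0.67), H2-D1 (0.63), H2-K1 (0.47), Tap1 (1.46) and Psmb8 (1.62) turned with intervals above 0; H2-T3 (0.20) and Nlrc5 (0.96) turned with intervals that hold 0. In stem/TA-like cells 2 were higher; 1 was at resolution 2.0, with the listed genes (which also gave 1 lower, against 0), with each library clustered on its own and without a Hoxd13 UMI, and 7 with one. In goblet-like cells 1 was lower; 2 were with equal weight per cell, 3 with equal weight per cluster and 0 with at least 100 UMIs per gene, which also gave 0 in enteroendocrine-like cells, against 1. In enteroendocrine-like cells 0 were higher; 1 was at 1000 genes per cell, in the 3 CPM and centring alternatives, without cells with a Ptprc UMI and with equal weight per cluster. Resolution 0.5 left no stem/TA-like class, and 10% mitochondrial UMIs or 5000 UMIs per cell left too few enteroendocrine-like cells. Of the other values and counts under the alternatives set at the start, 870 stayed and 346 moved. Staying meant lying within the interval for a value, and near the main count for a count. In colonocyte-like cells 9 of the 10 genes kept their sign in the 15 alternatives other than the Hoxd13 split, and Nlrc5 did in 14. Depth limits Nlrc5, H2-Q1 and H2-T3, which rest on few UMIs in some classes.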

Other observations

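Barcodes that the filter left out, 7808 in the GFP library and 6205 in the whole epithelium library, had 45.9% mitochondrial UMIs in the GFP library and 41.2% in the whole epithelium library. B2m stood at 723 CPM in the left-out GFP barcodes and 1658 CPM in the left-out whole epithelium barcodes, and H2-K1 at 946 CPM (GFP) and 1987 CPM (whole epithelium). Both were lower in the GFP library there, as in its colonocyte-like cells.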
